A study of Mus musculus with 6 samples.

Results

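In tibialis anterior muscle, 42 of the 28510 genes in the deposited count table were near silent by raw reads in every wild-type (WT) library. They had more raw reads in every library from muscle lacking both H2A.Z histone genes (KO). They were chosen by those same counts, as genes with at most 20 raw reads in each of 3 WT libraries and at least 60 in each of 3 KO libraries, with immunoglobulin and mitochondrial genes left out, and are called switched-on genes here. Their counts in KO against WT are therefore a description, given without a test. The largest recognisable groups among them were genes known from neural and neuroendocrine cells (8 genes), from kidney and other epithelia (8 genes) and from immune cells and osteoclasts (7 genes), beside the myoblast fusion gene Gm7325, now called Mymx. Once counts were scaled to a library size adjusted for composition, 24 of the 42 stayed within the limits. Those that left included Kcne1l, every gene of the immune group except Ccl22, and some neural and epithelial genes. Kcne1l, Pkhd1, Slc23a3 and Nup62cl had the highest levels in KO, and 2 genes, Arhgap36 and the non-coding Gm14110, had no read in any WT library.

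H2A.Z is a variant of histone H2A that sits in the nucleosomes flanking active and poised promoters, where it is exchanged for the ordinary histone by dedicated remodelling complexes. In vertebrates it is made from a pair of genes, H2A-Z.1 and H2A-Z.2, named H2afz and H2afv in the table, whose proteins are nearly alike. Genes that belong to other lineages, or to the embryonic stages of muscle, are normally kept silent in a mature muscle fibre.

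All samples were tibialis anterior, a fast muscle of the lower hind limb, from C57BL/6 mice aged 12 months. WT carried floxed alleles of both genes without the recombinase (H2A-Z.1flox/flox and H2A-Z.2 flox/flox, labelled HSA Cre WT), and KO carried the recombined alleles (H2A-Z.1-/- and H2A-Z.2-/-, labelled HSA Cre+). HSA is the human skeletal actin promoter, which drives Cre in muscle fibres, so the other cells of the muscle are expected to keep both genes, and whole muscle was sequenced. The labels give 3 samples per group without saying that each came from its own animal, and p-values below therefore measure the spread between these samples.

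Libraries held 35456883 to 102919416 counted reads, with WT replicate 2 the shallowest. The targeted genes checked the labels: H2afz fell by 1.85 on the log2 scale (SE 0.16, adjusted p = 4.42e-05) and H2afv fell by 2.17 (SE 0.16, adjusted p = 2.42e-05). The muscle was recognisable by its fibre genes, since 12 of 12 genes on a list of tibialis anterior fibre, among them Acta1 and Ckm, had reads in every library. Together they made up 261564 to 286997 TMM-scaled CPM (reads relative to a library size adjusted for composition) in WT and 179599 to 228414 CPM in KO. Among all 16628 genes tested, 2249 had risen in KO (13.5%) and 2062 had fallen (12.4%). One library stood apart. WT replicate 2 held reads of sperm genes, 224 of Prm2 and 165 of Tnp2 where every other library had 0 to 4, and its 20 germ-cell genes summed to 28.0 CPM against 1.90 to 2.39 in the other libraries. Without that library the limits took 43 genes, and since leaving out a library only relaxes the limits, the 42 are among them by construction.

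The size of the set follows from both limits. In WT, 13365 genes had at most 20 reads in each library, and 11983 of them (89.7%) stayed at or below 20 in every KO library. The 42 genes were 0.314% of the near-silent genes and 0.147% of all rows. A further 190 genes reached 60 reads in 1 or 2 of the KO libraries, and 1150 passed 20 reads in some KO library without reaching 60 in any. Of the near-silent genes, 1795 had enough reads to be tested, of which 352 had risen, the 42 included, and 7 had fallen. A gene near silent in WT mostly passes the filter on low counts through its KO reads, so these counts lean towards rises. The mirrored limits, at most 20 reads in each KO library and at least 60 in each WT library, took 1 gene, the cell polarity gene Pard6b. Every one of the 42 also passed the filter on low counts and was among the risen genes of the fit, which follows from how they were chosen.

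**Figure D1:**
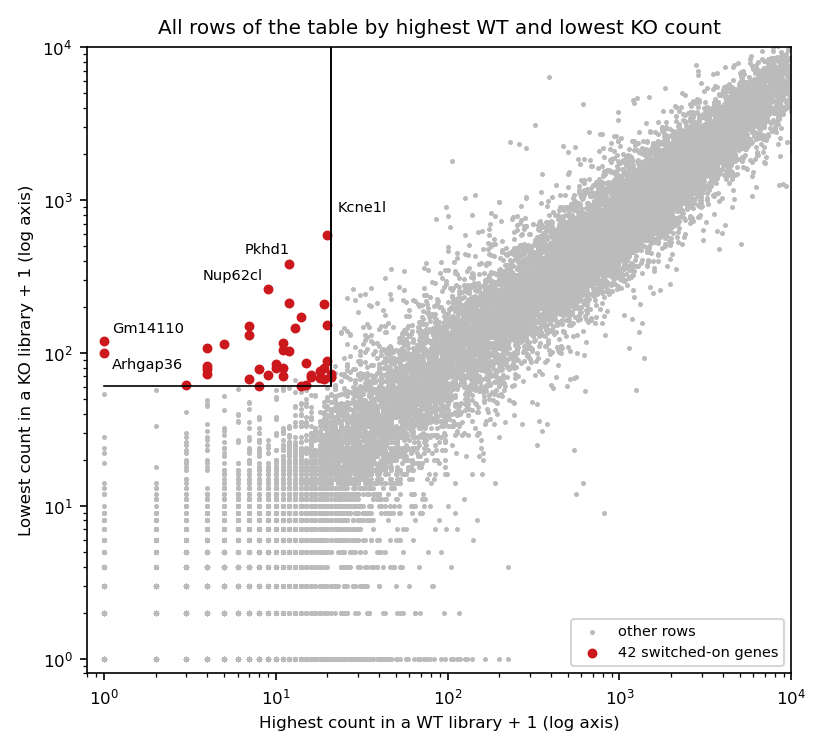
Each point is 1 gene of the table, with its highest count in a WT library on the horizontal axis and its lowest count in a KO library on the vertical axis, both plus 1 and on log axes, with the most abundant genes beyond the frame. The red points are the 42 genes inside the limits (black lines, drawn at 20 reads in WT and 60 in KO, plus 1), of which Arhgap36 and Gm14110 lie at 0 reads in WT and Kcne1l stands highest.

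The limits were applied to raw reads. Median-of-ratios size factors were 1.14, 0.491 and 0.939 in WT replicates 1 to 3 and 1.41, 0.915 and 1.51 in KO replicates 1 to 3. With counts first divided by these factors, 26 genes lay within the same limits, 24 of them among the 42, and 4 genes lay within the mirrored limits. Scaling with TMM factors gave the same 3 numbers. Scaling by the library total gave 32 genes within the limits and 2 within the mirrored ones. The 18 genes that left the limits after TMM scaling were Kcne1l, Ddc, Mrap, Ipcef1, Egr3, Atp6v0d2, Tmem45b, Prom2, Gpr65, Ptgs2, Havcr2, Gpr132, P2ry10, 4632434I11Rik, Dfna5, Celf4, Itgae and Unc13c. Among them were all immune and osteoclast genes except Ccl22. From the other large groups came Ddc, Celf4 and Unc13c (neural) and Tmem45b and Prom2 (epithelial). Kcne1l left because its reads in WT replicates 2 and 3, 11 and 19, both scale to more than 20. Nearest inside the WT limit were 4632434I11Rik, Celf4 and Dfna5 with 20 reads in their highest WT library, and Kcne1l and Pmaip1 with 19. Just outside it were Ankrd55, Fat2 and Rassf7 with 21 and Gabra3 and Hsbp1l1 with 23. Nearest inside the KO limit were Egr3 and Gpr132 with 60 reads in their lowest KO library, Gpr65 and Prom2 with 61 and Ipcef1 with 66, and just outside it were Aldh1b1 with 59, Il2rb and Itga2 with 58, Ccl5 with 57 and Cd2 with 56.

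Promoter windows of 300 bases, from 250 before to 50 after the annotated start, were available for 30 of the 42 genes (38 windows, RefSeq on build GRCm38.p6, matched by symbol). The windows of 6 genes are shown as examples. Motif shares among these 6 do not stand for those of the set. The first 3 hold the E-box core CAGCTG, a hexamer read by basic helix-loop-helix factors such as those of the myogenic family, printed in capitals, and the last 3 hold none. They lie at chrX:142306149-142306448 (minus strand, Kcne1l), chr1:75133841-75134140 (minus strand, Slc23a3), chr12:27342669-27342968 (minus strand, Sox11), chr1:20618008-20618307 (minus strand, Pkhd1), chrX:140062519-140062818 (minus strand, Nup62cl) and chrX:49463695-49463994 (plus strand, Arhgap36), the last being the first of 2 windows of that gene, and each is written 5′ to 3′ on the gene's strand.
Kcne1l: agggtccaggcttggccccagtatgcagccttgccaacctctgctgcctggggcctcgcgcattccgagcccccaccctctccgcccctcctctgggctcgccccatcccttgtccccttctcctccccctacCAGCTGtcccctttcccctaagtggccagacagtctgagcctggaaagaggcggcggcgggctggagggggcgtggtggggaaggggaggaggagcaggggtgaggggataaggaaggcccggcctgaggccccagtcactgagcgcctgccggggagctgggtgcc
Slc23a3: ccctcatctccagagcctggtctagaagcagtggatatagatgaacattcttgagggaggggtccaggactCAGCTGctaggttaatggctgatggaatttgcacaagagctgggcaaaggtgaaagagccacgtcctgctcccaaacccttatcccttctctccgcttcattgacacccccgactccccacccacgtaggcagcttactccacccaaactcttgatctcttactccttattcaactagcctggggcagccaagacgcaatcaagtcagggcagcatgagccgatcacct
Sox11: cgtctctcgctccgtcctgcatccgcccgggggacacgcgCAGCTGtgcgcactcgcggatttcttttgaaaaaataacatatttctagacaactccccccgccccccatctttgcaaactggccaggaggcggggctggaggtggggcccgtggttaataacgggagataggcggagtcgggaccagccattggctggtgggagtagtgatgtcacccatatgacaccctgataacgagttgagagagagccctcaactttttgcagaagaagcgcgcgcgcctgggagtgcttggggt
Pkhd1: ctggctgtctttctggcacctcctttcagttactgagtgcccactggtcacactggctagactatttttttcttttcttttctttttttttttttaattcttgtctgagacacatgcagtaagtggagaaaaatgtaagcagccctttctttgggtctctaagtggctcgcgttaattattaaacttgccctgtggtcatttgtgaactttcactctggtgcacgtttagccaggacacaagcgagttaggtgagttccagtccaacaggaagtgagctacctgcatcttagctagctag
Nup62cl: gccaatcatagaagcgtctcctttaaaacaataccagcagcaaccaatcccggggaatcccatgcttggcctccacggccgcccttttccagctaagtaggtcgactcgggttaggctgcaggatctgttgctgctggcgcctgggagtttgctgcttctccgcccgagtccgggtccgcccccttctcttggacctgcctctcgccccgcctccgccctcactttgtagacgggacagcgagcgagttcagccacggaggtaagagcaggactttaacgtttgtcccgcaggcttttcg
Arhgap36: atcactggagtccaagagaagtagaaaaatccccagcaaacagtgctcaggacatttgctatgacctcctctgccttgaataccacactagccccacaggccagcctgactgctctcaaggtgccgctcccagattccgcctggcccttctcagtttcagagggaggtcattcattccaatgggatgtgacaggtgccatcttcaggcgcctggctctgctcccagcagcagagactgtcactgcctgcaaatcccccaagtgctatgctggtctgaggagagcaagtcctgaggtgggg

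These windows differ in composition as well. The Kcne1l window was 69.7% G and C with 12 CpG dinucleotides, and Sox11 and Nup62cl held 21 CpG each, whereas the Pkhd1 window was 43.3% G and C with 4 CpG and the Arhgap36 window held 3. The E-box core, searched as CAGCTG, which reads the same on both strands, was present in 11 of the 30 genes (36.7%). It was present in 18.3% of genes over all promoters of the table, in 19.1% of other protein-coding genes near silent in WT and in 24.7% of other risen protein-coding genes. The 11 were Slc23a3, Lamb3, Dmp1, Kcne1l, B3gat1, Unc13c, Ipcef1, Sox11, Gpr65, Gpr132 and P2ry10. TGANTCA, the AP-1 site, was present in 3 genes (10.0%, against 8.97% of all promoters), the TATAAA box in 3 genes (10.0% against 15.7%), both searched on both strands, and the MEF2 consensus in none (against 0.636%). Median GC content was 57.8% in the 30 genes and 52.8% over all windows. It was 51.3% in other near-silent and 59.2% in other risen protein-coding genes. The median CpG count was 6, close to the 5 of other near-silent genes and below the 15 of other risen genes. No test was made on these shares, which describe letters in a fixed window and not binding.

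Kcne1l, also called Kcne5, encodes an accessory subunit of voltage-gated potassium channels known from the heart. It had 5, 11 and 19 reads in WT replicates 1 to 3 and 1254, 590 and 1153 in KO replicates 1 to 3. Scaled to library size, WT stood at 0.220 ± 0.138 CPM and KO at 10.7 ± 1.62 CPM (mean ± SD of 3 libraries per group, as for all levels below), a 57.4-fold ratio with a 95% counting interval of 41.2 to 82.6. No other gene of the set had as many reads in KO, and its KO level per kb was also the highest of the set whether the deposited gene length or the summed exon length of a current annotation was used. Here and below, a ratio compares reads summed over each group after TMM scaling, and its interval covers counting error only. In whole muscle, transcripts present in few cells and transcripts present at a low level in all cells cannot be told apart.

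Pkhd1 encodes fibrocystin, a large membrane protein of the primary cilium of kidney and bile duct epithelium that is mutated in human autosomal recessive polycystic kidney disease. It had 11, 4 and 0 reads in the WT libraries and 571, 382 and 484 in the KO libraries. The groups were far apart, at 5.34 ± 0.706 CPM in KO against 0.0830 ± 0.0727 CPM in WT, a 64.3-fold ratio (interval 38.8 to 115). The highest of its KO levels was 1.29 times the lowest, one of the smaller spreads of the set. The list of 21 other cilium and polycystic-disease genes tested did not follow it in 1 direction: 2 had risen, Pkd2 by 0.63 (SE 0.16, adjusted p = 0.0172) and Bbs2 by 0.73 (SE 0.23, adjusted p = 0.0370), and 3 had fallen, among them Bbs4 at −0.64 (SE 0.17, adjusted p = 0.0214) and Ift57 at −0.80 (SE 0.25, adjusted p = 0.0366). Their median log2 fold change was −0.01, against 0.01 for all genes tested. The count of 2 fell to 1 without any 1 of KO replicates 1 and 3 and WT replicates 1 and 2, and to 0 without WT replicate 3.

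Nup62cl encodes a protein related to the C-terminal part of Nup62, a nucleoporin of the central channel of the nuclear pore. Its reads were 7, 8 and 2 in WT and 405, 320 and 261 in KO, or 0.115 ± 0.102 and 3.78 ± 1.25 CPM, a 38.9-fold ratio (interval 24.2 to 67.1). KO replicate 2 was the highest of the 3 KO libraries once scaled, at 2.01 times the lowest. Nup62 itself, a broadly expressed gene, was at 16 ± 2.26 CPM without and 15.2 ± 3.10 CPM with the deletion, with a log2 fold change of −0.06 (SE 0.18) that did not pass the test (adjusted p = 0.828). Of the 26 other nucleoporin genes tested, 1 had risen, Nup43 at 0.51 (SE 0.17, adjusted p = 0.0439), and 2 had fallen, Nup210 at −0.69 (SE 0.19, adjusted p = 0.0233) and Nup85 at −0.48 (SE 0.15, adjusted p = 0.0382). The call for Nup43 rested on single libraries: no nucleoporin had risen without KO replicate 1, KO replicate 3 or any 1 WT library, and 2 had risen without KO replicate 2.

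Arhgap36 encodes a protein of a GTPase-activating family known to inhibit the catalytic subunit of protein kinase A and so to activate Gli factors of the hedgehog pathway, with expression known from the hypothalamus, pituitary and adrenal. It had no read in any WT library and 254, 99 and 226 in the KO libraries, 2.05 ± 0.489 CPM. Against a floor of 3 counts over the WT group it was at least 129-fold higher in KO. The hedgehog list held no other gene that came on from silence: the ligand gene Shh had 0, 0 and 3 reads in WT and none in KO, and Ihh had 1 to 12 reads per library. Of 14 other hedgehog genes tested, 1 had risen, the signal transducer Smo at 0.52 (SE 0.16, adjusted p = 0.0364), and 1 had fallen, Prkacb at −0.92 (SE 0.15, adjusted p = 0.00189), which encodes a catalytic subunit of protein kinase A. The risen count was 0 without KO replicate 1, WT replicate 1 or WT replicate 2, and 3 without KO replicate 3. Ipcef1, whose product binds cytohesin exchange factors, completed this group of signalling genes at 18, 6 and 9 reads in WT and 116, 84 and 66 in KO.

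**Figure D2:**
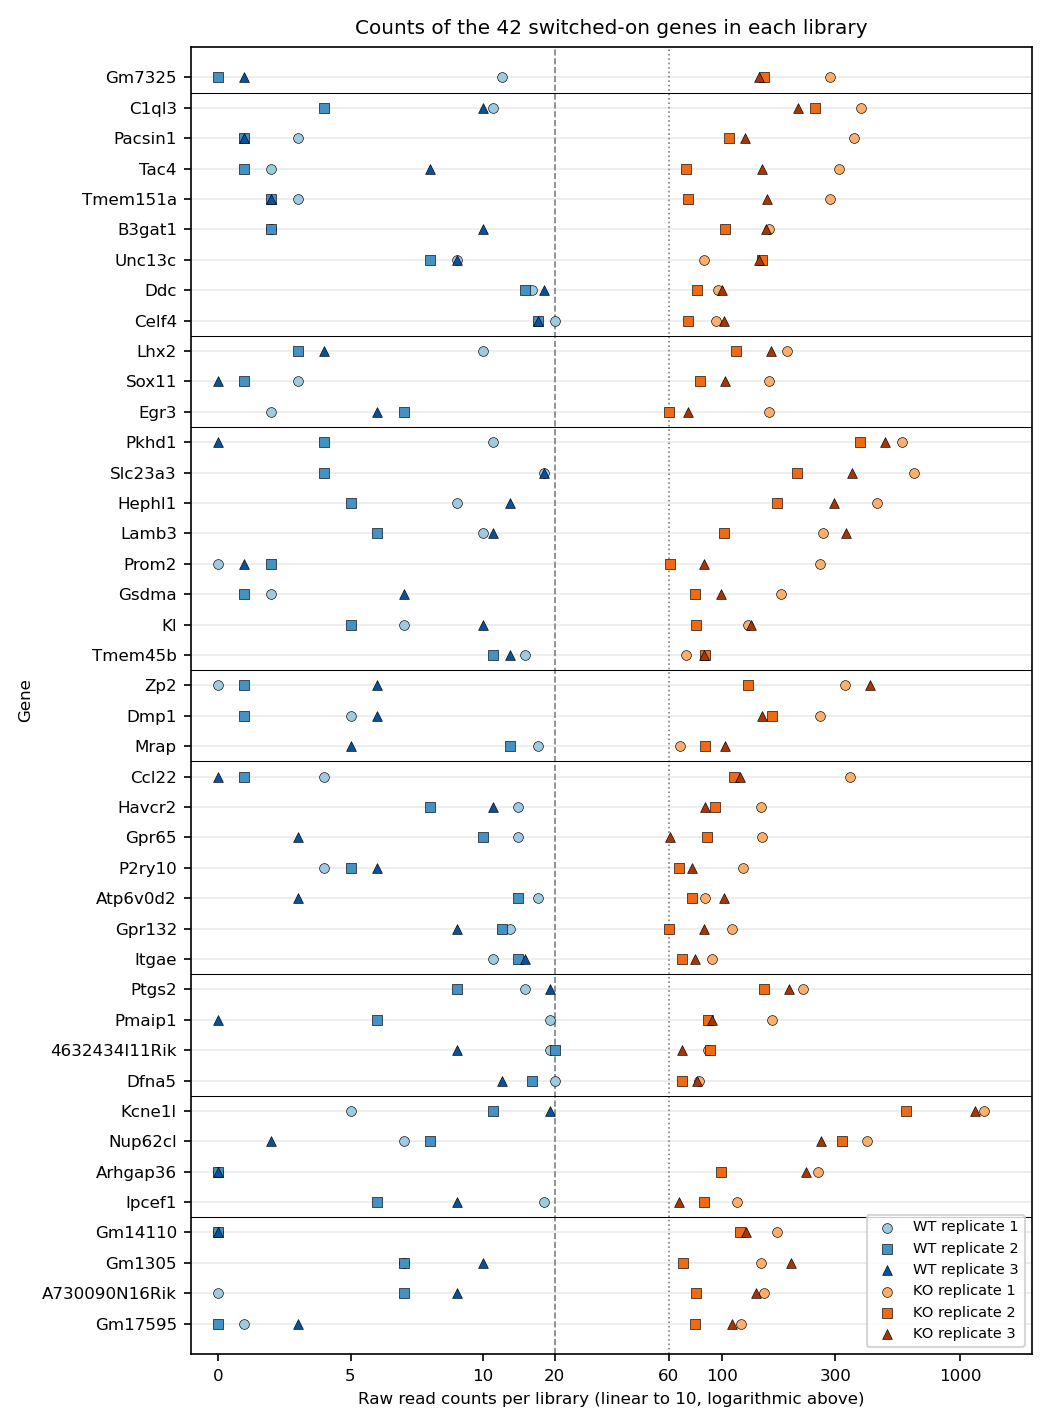
Raw read counts of each of the 42 genes in the 3 WT (blue) and 3 KO (orange) libraries, on an axis that is linear to 10 and logarithmic above, with the limits at 20 and 60 reads dashed and dotted and horizontal lines between gene classes. By construction no WT point lies right of 20 and no KO point left of 60, and Arhgap36 and Gm14110 are the 2 genes with all WT points at 0.

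Gm7325 is the gene of myomixer (Mymx), a small membrane protein that acts with myomaker in the fusion of myoblasts and that resting adult muscle does not normally make. It had 12, 0 and 1 reads in WT and 284, 150 and 144 in KO, a 29.8-fold ratio (interval 17.3 to 56.4), and 12 of its 13 WT reads came from replicate 1. Without that library its fitted log2 fold change went from 4.96 to 7.56. Its partner myomaker, named Tmem8c in the table, was not near silent by the limits because WT replicate 1 held 46 reads, against 2 and 7 in the other WT libraries and 640, 353 and 637 in KO. Tmem8c had risen by 4.40 (SE 0.50, adjusted p = 0.000228). Of the 19 other genes on a list of embryonic and regenerating fibre, 14 had risen and none had fallen in edgeR, the tool behind every adjusted p here, with no lower gene at an unadjusted p below 0.05, and their median log2 fold change was 2.27. The lowest p values belonged to Ncam1, the neural cell adhesion molecule (3.40, SE 0.17, adjusted p = 3.18e-06), Ankrd1 (4.65, SE 0.29, adjusted p = 8.29e-06) and Myog, the differentiation factor myogenin (2.68, SE 0.18, adjusted p = 1.39e-05). A list of 19 genes known to respond to denervation, which shares Ncam1, Ankrd1, Myog and others with it, had 14 risen and 2 fallen, with a median of 2.51. Next to Ncam1 its lowest p values belonged to the acetylcholine receptor subunit gene Chrne (2.89, SE 0.16, adjusted p = 3.66e-06) and to Sln, the calcium pump inhibitor sarcolipin (5.27, SE 0.30, adjusted p = 4.21e-06). Its fetal acetylcholine receptor subunit gene Chrng, at 34, 5 and 6 reads in WT and 246, 146 and 302 in KO, had risen by 3.42 (SE 0.43, adjusted p = 0.000396), and the 2 that had fallen were the ubiquitin ligase genes Trim63 and Fbxo32. Since these lists were drawn up with results of these libraries known, their counts are not independent evidence.

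The neural and neuroendocrine group held 8 genes. C1ql3, whose secreted product organises synapses, had 11, 4 and 10 reads in WT and 384, 246 and 210 in KO, a 22.5-fold ratio (interval 15.2 to 35.0). Pacsin1, which works in synaptic vesicle endocytosis, had 3, 1 and 1 reads against 360, 107 and 125, a 79.4-fold ratio (interval 33.8 to 245). Tmem151a, a brain-enriched membrane protein gene linked to a human movement disorder, had 3, 2 and 2 against 285, 72 and 155, a 49.1-fold ratio (interval 23.6 to 123). For Pacsin1 and Tmem151a, KO replicate 1 stood well above the other 2 KO libraries once scaled. B3gat1, the enzyme that makes the HNK-1 carbohydrate epitope of neural cells, was by contrast even, with 2, 2 and 10 reads in WT and 158, 103 and 153 in KO, and its highest KO level was 1.1 times its lowest. Tac4, which encodes the tachykinin peptides called hemokinins, had 2, 1 and 8 reads against 311, 71 and 148, and Unc13c, a synaptic vesicle priming factor of the cerebellum, had 9, 8 and 9 against 84, 148 and 144. Ddc, the decarboxylase of dopamine and serotonin synthesis, and Celf4, a neural RNA-binding protein gene, were nearer the limits. Ddc went from 16, 15 and 18 reads to 97, 79 and 100 (3.78-fold, interval 2.78 to 5.23) and Celf4 from 20, 17 and 17 to 95, 72 and 102 (3.34-fold, interval 2.49 to 4.56).

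General neuronal markers moved in part. Of 23 on the list, 11 were at or below 20 reads in all 6 libraries, among them the neurofilament genes Nefl, Nefm and Nefh, the glutamate decarboxylase gene Gad1 and Rbfox3. Of the 12 tested, 5 had risen and none had fallen, none being lower at an unadjusted p below 0.05, with a median log2 fold change of 0.90. Those with the lowest p were Uchl1, a neuronal deubiquitinase (2.17, SE 0.25, adjusted p = 0.000259), the granule protein gene Scg3 (2.96, SE 0.48, adjusted p = 0.00185) and the SNARE gene Snap25 (2.13, SE 0.54, adjusted p = 0.0158). The count of risen genes was 3 without KO replicate 1, WT replicate 1 or WT replicate 3. Of the risen genes, Scg2, Snap25 and Elavl3 had at most 20 reads in every WT library. Snap25 had 12, 3 and 2 reads in WT and 42, 17 and 55 in KO. Such genes mostly pass the filter on low counts through their KO reads, so the count and the median lean towards rises. The summed level of the list was 6.52 to 8.78 CPM in WT and 15.6 to 19.2 CPM in KO, and a list of 13 Schwann cell genes ran at 33.3 to 46.0 CPM in WT and 54.3 to 71.2 CPM in KO. In the Schwann cell list 4 of 12 tested had risen, led by Gldn (3.49, SE 0.42, adjusted p = 0.000349), Egr2 (2.19, SE 0.40, adjusted p = 0.00314) and Pmp22 (0.64, SE 0.15, adjusted p = 0.0100), or 2 without WT replicate 1. The part of either cell type in the neural group was not tested.

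Among transcription factors, 3 were in the set. Lhx2, a LIM homeodomain factor of forebrain, eye, limb bud and hair follicle, had 10, 3 and 4 reads in WT and 188, 115 and 161 in KO, an 18.3-fold ratio (interval 11.3 to 31.7). Sox11, a factor of developing neurons and other embryonic tissue, had 3, 1 and 0 against 158, 81 and 103, a 57.3-fold ratio (interval 22.2 to 212). Egr3, an immediate-early factor needed in the mouse for muscle spindles, had 2, 7 and 6 against 158, 60 and 72, a 13-fold ratio (interval 7.73 to 23.5). All 3 were highest in KO replicate 1 and lowest in KO replicate 3 once scaled. Lhx2 was the only gene of the set on a list of 26 factors that specify other lineages. Of these, 20 were at or below 20 reads in all 6 libraries, among them Sox2, Foxa2, Neurod1, Olig2, Isl1 and Cdx2. Within that ceiling Gata4 had 0, 2 and 0 reads in WT and 6, 9 and 20 in KO, and Eomes 2, 0 and 2 against 19, 14 and 9. Both had too few reads to test, and others such as Sox2 were no higher in KO (0.123 CPM in WT, 0.0522 CPM in KO). None of the 6 list genes tested besides Lhx2 had risen in edgeR, DESeq2 or limma-voom, with none higher and 1 lower at an unadjusted p below 0.05, although leaving out a library gave up to 2 risen genes.

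The epithelial and kidney group held 8 genes with Pkhd1. Slc23a3, an orphan member of the ascorbate transporter family known from the kidney proximal tubule, had 18, 4 and 18 reads in WT and 639, 208 and 353 in KO, a 20.1-fold ratio (interval 14.7 to 28.3). Hephl1, the copper ferroxidase zyklopen of placenta and hair follicle, had 9, 5 and 13 against 449, 170 and 295, a 22.7-fold ratio (interval 15.5 to 34.6). Both were highest in KO replicate 1 once scaled. WT replicate 2, the shallowest library, held the fewest raw reads of both, but once scaled Hephl1 was lowest in WT replicate 1. Lamb3, a chain of the epithelial basement membrane laminin of skin, had 10, 6 and 11 against 266, 102 and 333, a 17.4-fold ratio (interval 11.9 to 26.6). It overlaps Hsd11b1 on the opposite strand, which had risen by 0.76, and the sources used here do not say how the counting treated strand. Prom2, a prominin of epithelial membrane protrusions, had 0, 2 and 1 reads in WT and 259, 61 and 84 in KO. With 3 reads in all of WT its ratio of 90.3 has an interval of 30.7 to 440, and its KO levels were the most uneven of the set, the highest being 3.22 times the lowest. Gsdma, the skin gasdermin, had 2, 1 and 7 reads against 178, 77 and 99. The phosphate-regulating gene Kl, klotho of the kidney tubule, had 7, 5 and 10 against 129, 78 and 133, a 10.4-fold ratio (interval 6.74 to 16.8), with the most even KO levels of the set at 1.05 times between highest and lowest. Tmem45b, a membrane protein gene known from epithelial tissue, had 15, 11 and 13 against 71, 85 and 84, a 4.13-fold ratio (interval 2.93 to 5.95).

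General epithelial and kidney markers mostly stayed near silence. Of 20 found in the table, 12 stayed at or below 20 reads in all 6 libraries, among them the claudin genes Cldn3, Cldn4 and Cldn7, the kidney transporter genes Slc12a1 and Slc12a3, the water channel gene Aqp2 and the podocyte gene Nphs1. Of the 8 tested, 1 had risen, the keratin gene Krt18 at 2.20 (SE 0.40, adjusted p = 0.00297), or 2 without WT replicate 2. The list summed to 1.99 to 5.44 CPM in WT and 4.22 to 5.62 CPM in KO, with WT replicate 2 the highest WT library. Of 15 liver genes, 13 stayed at or below 20 reads in all 6 libraries, and neither gene tested had risen in edgeR, DESeq2 or limma-voom. The cytochrome gene Cyp2e1 was the 1 liver gene higher at an unadjusted p below 0.05 (log2 fold change 1.11, SE 0.42, adjusted p = 0.0767).

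A further 3 genes belong to oocyte, bone and adrenal. Zp2, a protein of the egg coat (zona pellucida) made by growing oocytes, had 0, 1 and 6 reads in WT and 328, 129 and 417 in KO, an 83.7-fold ratio (interval 40.5 to 209). Leaving out WT replicate 3, which held 6 of its 7 WT reads, moved its fitted log2 fold change from 6.25 to 8.21. A list of 20 germ-cell genes, mostly of meiosis and sperm and without egg coat genes, summed to 1.94 to 2.39 CPM in KO, and of 4 tested none had risen in edgeR or DESeq2 and 1 had in limma-voom. In edgeR 1 was higher at an unadjusted p below 0.05 and Dazl had fallen (−1.93, SE 0.44, adjusted p = 0.0100), and without WT replicate 2, the library with sperm transcripts, 2 had risen. Dmp1, a matrix protein of osteocytes and dentine, had 5, 1 and 6 reads against 259, 163 and 148, a 31.9-fold ratio (interval 18.1 to 62.0). Mrap, the accessory protein that brings the ACTH receptor to the surface of adrenal cells, had 17, 13 and 5 against 67, 85 and 103, a 4.89-fold ratio (interval 3.42 to 7.17). Once scaled, its highest WT level was 0.37 CPM and its lowest KO level 0.658 CPM.

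The immune and osteoclast group held 7 genes. Ccl22, a chemokine of dendritic cells and macrophages that attracts T cells, had 4, 1 and 0 reads in WT and 346, 113 and 119 in KO, a 77.5-fold ratio (interval 33.0 to 240). P2ry10, a lymphocyte receptor gene for lysophospholipids, had 4, 5 and 6 against 123, 66 and 75, and Gpr65, a proton-sensing receptor of leukocytes, had 14, 10 and 3 against 147, 87 and 61. Ccl22, P2ry10 and Gpr65 were highest in KO replicate 1 once scaled, as was Gpr132, a stress-responsive receptor of leukocytes, with 13, 12 and 9 against 111, 60 and 84. Havcr2, the checkpoint receptor TIM-3, had 14, 8 and 11 reads against 146, 94 and 85. Itgae, the integrin chain CD103 of tissue-resident T cells, had 11, 14 and 15 against 91, 68 and 77 and overlaps the gene of the kinase haspin. Atp6v0d2, a proton pump subunit of osteoclasts and macrophages, had 17, 14 and 3 against 85, 75 and 102. Apart from Ccl22 these genes had ratios of 3.96 to 11.8, and all of them left the limits after TMM scaling. Markers of immune cells were higher in the same libraries. Of 20 macrophage genes 17 had risen and none had fallen, none being lower at an unadjusted p below 0.05, with a median log2 fold change of 1.42, led by Itgax (3.31, SE 0.35, adjusted p = 0.000150), Ctss (2.91, SE 0.34, adjusted p = 0.000264) and Tyrobp (1.90, SE 0.28, adjusted p = 0.00113). Cd68 had risen by 1.51 (SE 0.36, adjusted p = 0.0124). The macrophage list summed to 224, 207 and 100 CPM in the WT libraries and 512, 468 and 335 in the KO libraries, and none of its genes was at 0 in any library. Of 14 B, T and mast cell and granulocyte genes tested, 4 had risen, Igj (4.16, SE 0.43, adjusted p = 0.000137), Cd2 (2.48, SE 0.35, adjusted p = 0.000913), Cd4 (4.59, SE 0.77, adjusted p = 0.00215) and Nkg7. None had fallen, although 1 was lower at an unadjusted p below 0.05. Cd2, Cd4 and Nkg7 had at most 20 reads in every WT library. Such genes mostly pass the filter on low counts through their KO reads, so this count leans towards rises. The 20 on the list summed to 7.78 to 8.24 CPM in WT and 12.4 to 20.9 CPM in KO, of which Igj alone made 0.271 ± 0.094 and 4.75 ± 2.61 CPM. The part of macrophages and these other immune cells in the immune group was not tested.

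The last protein-coding group is of stress and cell death. Ptgs2, the inducible cyclooxygenase of prostaglandin synthesis, had 15, 9 and 19 reads in WT and 219, 150 and 191 in KO, an 8.74-fold ratio (interval 6.40 to 12.2). Pmaip1, the p53-inducible death protein Noxa, had 19, 6 and 0 against 163, 88 and 91, a 9.18-fold ratio (interval 6.11 to 14.4). Dfna5, the pore-forming protein gasdermin E, had 20, 16 and 12 against 80, 68 and 79, a 3.17-fold ratio (interval 2.31 to 4.43) that was the smallest of the set. The gene listed as 4632434I11Rik, the death-inhibiting factor Ddias, had 19, 20 and 9 against 88, 89 and 68, a 3.42-fold ratio (interval 2.50 to 4.77). These 4 genes were lowest in KO replicate 3 once scaled. For 2 of them that level lay close to WT replicate 2, the highest WT library. Dfna5 stood at 0.456 CPM in WT replicate 2 and 0.742 CPM in KO replicate 3, and 4632434I11Rik at 0.57 and 0.638 CPM.

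Of the other 4 genes, 2 are annotated as non-coding. Gm14110, a long intergenic RNA on chromosome 2, had no read in any WT library and 171, 119 and 126 in the KO libraries, 1.56 ± 0.339 CPM, at least 93.0-fold higher than the WT floor. Its highest KO level was 1.55 times its lowest. It overlaps Nkx2-2os, an antisense RNA with 9 reads in all of WT and 25 in all of KO, whose sense gene Nkx2-2 had 0 reads in WT and 1 in KO. A730090N16Rik is annotated as antisense to the potassium channel subunit gene Kcnab1 and had 0, 7 and 9 reads against 151, 78 and 140, a 15.5-fold ratio (interval 9.40 to 27.3). Kcnab1 had 1449 reads in WT and 1146 in KO and was not called in either direction. Gm17595, which has no entry in the annotation used, had 1, 0 and 3 reads against 121, 77 and 111, a 51.8-fold ratio (interval 20 to 191). Gm1305, now Kif28, a kinesin motor gene, had 7, 7 and 10 against 146, 69 and 195, an 11.5-fold ratio (interval 7.59 to 18.1), and lies on the same strand as the overlapping gene Ahctf1, which had 12843 and 15031 reads and was not called. Dfna5 and B3gat1 likewise overlap an expressed gene on the opposite strand, Mpp6 and Glb1l2, neither of which was called.

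**Figure D3:**
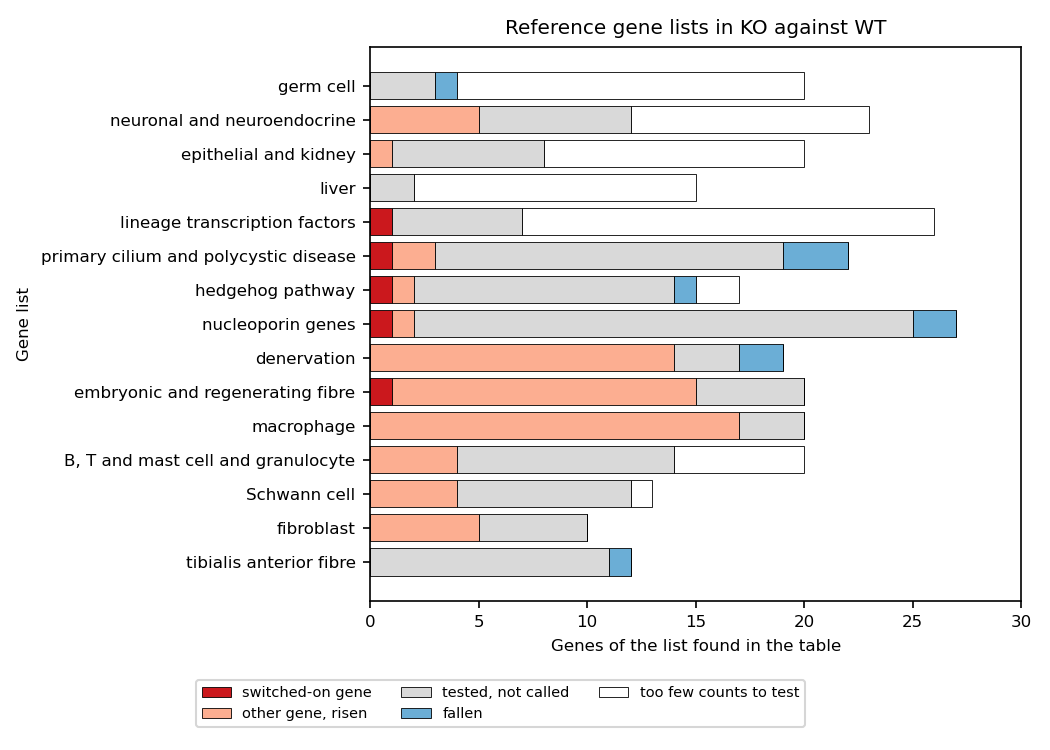
Reference gene lists of the fit of KO against WT, with the number of genes of each list that are switched-on genes (red), other genes that had risen (orange) or fallen (blue), genes tested and not called (grey) and genes with too few counts to test (white). Lists of other lineages, liver, germ cell and lineage transcription factors are mostly white or grey, while 14 of 19 denervation genes and 17 of 20 macrophage genes had risen.

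Within KO the genes differed in which library was highest. Summed over the set, the level was 4.61, 7.64 and 4.71 CPM in WT replicates 1 to 3 and 98.1, 80.6 and 70.0 CPM in KO replicates 1 to 3. After scaling, 22 genes were highest in KO replicate 1, 17 in KO replicate 2 and 3 in KO replicate 3 (Zp2, Lamb3 and Gm1305), and 26 were lowest in KO replicate 3. The 1108 other risen genes in the same range of KO level divided in a like way, with 52.5% highest in KO replicate 1 against 52.4% of the set, and 61.2% lowest in KO replicate 3 against 61.9%. The highest KO level was a median of 1.82 times the lowest in the set and 1.54 times in those other genes. Without the immune group, 18 of 35 genes were highest in KO replicate 1. Macrophage and lymphoid marker sums were also highest in KO replicate 1 and lowest in KO replicate 3, and the 10 fibroblast genes, of which 5 had risen, led by Postn (1.63, SE 0.25, adjusted p = 0.00142), Dcn (1.16, SE 0.30, adjusted p = 0.0161) and Dpt (0.71, SE 0.21, adjusted p = 0.0294), summed to 2729, 2786 and 2013 CPM in KO and 1344 to 1968 CPM in WT. The fibroblast count was 3 without KO replicate 1 or WT replicate 2, 2 without KO replicate 2 and 1 without WT replicate 3, and the part of these cells in the order of the libraries was not tested.

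**Figure D4:**
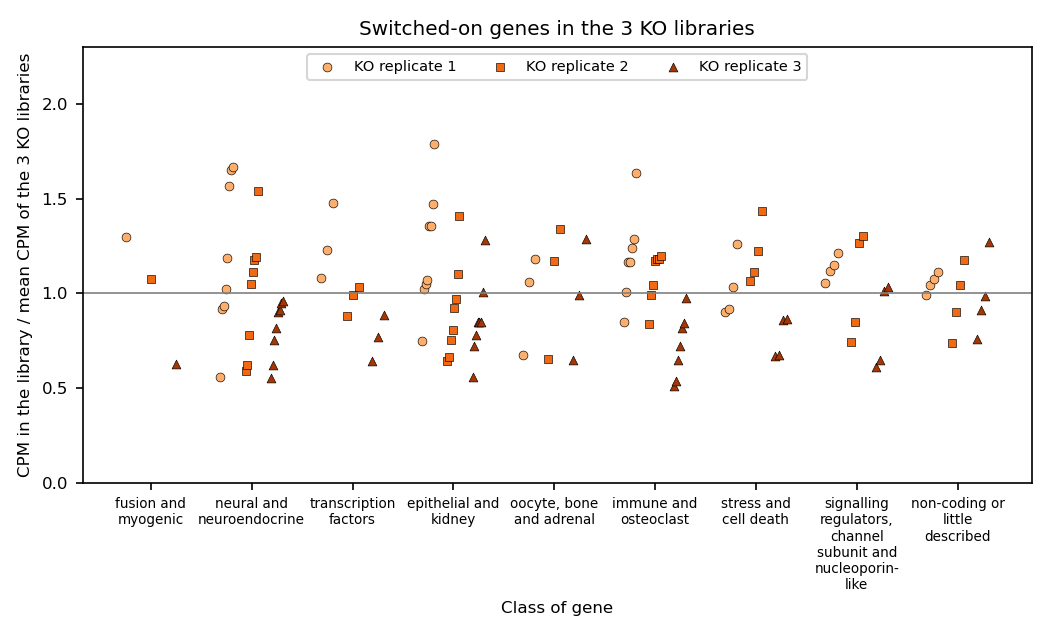
For each of the 42 genes, its CPM in a KO library divided by its mean over the 3 KO libraries, by gene class, with the horizontal line at the mean. KO replicate 3 (dark triangles) lies below the mean for most genes, and the 3 genes highest there are Zp2, Lamb3 and Gm1305.

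Gene type, length and chromosome were not named in the limits, although a floor on raw reads favours long and protein-coding transcripts. Of the 41 genes found in the annotation, 39 were protein-coding (95.1%), against 45.0% of the other near-silent genes and 95.3% of the other risen genes. The 42 had a median deposited gene length of 2.03 kb, against 0.886 kb for other near-silent genes and 2.01 kb for other risen genes. Among protein-coding genes alone these medians were 2.05, 1.51 and 2.04 kb. On the X chromosome lay 4 of the set, Kcne1l, Nup62cl, Arhgap36 and P2ry10 (9.76%), against 7.70% of other near-silent genes and 4.50% of other risen genes. Among protein-coding genes alone the shares on X were 10.3%, 5.02% and 4.47%. Genes that report sex gave no call between the groups: Ddx3y, Uty, Kdm5d and Eif2s3y had reads in every library, Xist had 3 to 15, and none of the 5 was called in edgeR, DESeq2 or limma-voom or had an unadjusted p below 0.05. Deposited gene lengths were often far shorter than the summed exon length of a current annotation, 1.64 against 14.3 kb for Pkhd1 and 0.747 against 6.61 kb for Lamb3, and only 5 of the 10 genes highest per kb by the first were among the 10 highest by the second. Levels per kb are for that reason not compared further.

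Some of the genes lay beside another risen gene. For 9 of the 41 placed genes (22%) the nearest gene on 1 side or the other had risen, against 1762 of 11643 other near-silent genes (15.1%), with no test of the difference. Those other genes were less often protein-coding (45.0% against 95.1%), and the shares were not matched for gene type or length. The pairs were Ptgs2 with Pla2g4a, the phospholipase that releases the substrate of Ptgs2 (1.20), Ccl22 with the chemokine gene Cx3cl1 (1.53), Dfna5 with Osbpl3 (2.51), P2ry10 with A630033H20Rik (1.58), 4632434I11Rik with Prcp (0.86), Tmem45b with Barx2 (0.82), Lamb3 with Hsd11b1 (0.76), Hephl1 with Panx1 (0.65) and Kl with Stard13 (0.45), where the values are log2 fold changes of the neighbour. Within 100 kb there were 7 (17.1% against 12.8%). The share moved with single libraries, to 5 genes without KO replicate 1 (12.2% against 9.68%), to 6 without WT replicate 2 or WT replicate 3 and to 4 without WT replicate 1 (9.76% against 10.6%). Arhgap36, Pkhd1, Nup62cl and Kcne1l were not among the 9.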

How the data were processed

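RNA was measured in 6 samples of frozen tibialis anterior, 3 WT and 3 KO, grouped by the genotype in the labels. Total RNA was depleted of ribosomal RNA and made into strand-specific libraries, per the labels' protocols. Tools named in the submitters' processing notes are TopHat2 2.0.14, HTSeq 0.6.1, bcl2fastq 2.17.1.14 and Bowtie, with build mm9 (what each did, the annotation used and any strand setting: not given in the sources used here). All 28510 genes are in 1 table, deposited by the authors with raw read counts per library, not normalized, per the file headers. Its other per-library columns hold a signal normalized per kb of gene by the authors, per the file headers, from which only the gene length was taken. The authors' deposited log2 fold change, p-value and adjusted p-value were not used.

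No change was made to the deposited counts. Names that had become dates (14) were restored by identifier, and 939 repeated names were made unique. GENCODE M21 on GRCm38 held 26186 of the identifiers and served for symbols, gene types, overlaps and neighbours; since the build differs, no coordinates are given from it, and those of promoter windows are RefSeq's. The comparison of KO with WT used edgeR 4.0.16 under R 4.3.3 (TMM factors, filterByExpr with a minimum count of 10 and minimum total of 15, quasi-likelihood F test, no covariate, Benjamini-Hochberg adjustment over 16628 genes, threshold 0.05), after the script was tested on simulated data. The SE is the size of the log2 fold change divided by the square root of F. CPM are TMM-scaled. Floors are 3 counts over a group, and 95% intervals of ratios are exact conditional ones; both cover counting error only. Genes "risen" or "fallen" passed the test. Total counts per library ran from 35456883 to 102919416.

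Named genes are all 42 members, the rows nearest each limit, up to 3 called genes of lowest p per list and a few reference genes. Genes given as examples at or below 20 reads, overlapping genes and neighbours were added after their values were seen. Gene classes were assigned after the members were known. The members and lists were chosen with earlier results of these data known. Of 294 list symbols in 16 lists, 289 were found. Alternatives were other limits and scalings, DESeq2 1.42.0, limma-voom (limma 3.58.1), other filters and prior counts, the replicate number as a block, leaving out each library and, chosen after seeing the data, exon-union length, the set without its immune class and neighbours within 100 kb.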

Additional observations from a re-analysis of the deposited data

How the results depend on the processing

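The number of switched-on genes moved with the limits: 21 with at most 10 WT reads, 8 with at most 5 and 84 with at most 30, and 165 with at least 30 KO reads and 10 with at least 120. It was 26 with TMM-scaled and 26 with median-of-ratios-scaled counts, 1 for the mirrored limits, and 43 to 87 with a library left out (87 without WT replicate 1, 86 without KO replicate 2). Genes risen numbered 3418 and fallen 1030 with library size alone, 1391 to 2321 and 1168 to 2189 with a library left out. DESeq2 gave 2314 and 2362, limma-voom 2092 and 2111, and no filter 2713 and 2325. The cause of these shifts was not tested. The replicate number as a block gave 2457 risen and 2236 fallen genes and 71 risen list genes against 64. Deviations of WT and KO samples from their group means correlated at 0.06, 0.02 and 0.06 for the same number. They correlated at −0.08 to 0.02 for different numbers. With 3 samples per group these values cannot decide whether the numbers pair the samples. Risen list genes ran from 54 to 74 over the alternatives, and 54 to 68 with a library left out, and members with a risen neighbour from 4 to 9 with a library left out and 13 with library size alone. Of 378 recomputed member fold changes, 317 moved by less than 1 SD of the KO libraries, 61 by more, and 0 changed sign. Depth limits ratios of genes with under about 10 WT reads in all, whose intervals span several-fold.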

Other observations

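WT replicate 2 was the only library with more than 4 reads of the sperm genes Prm1 (117 reads), Prm2 (224), Tnp1 (103), Tnp2 (165) and Odf1 (82), and it held 58 reads of the germ-cell gene Mael, which had 0 in the other 5 libraries. None of the 42 genes is on that list, and the oocyte gene Zp2 had 1 read in that library.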
